A study of Homo sapiens with 6 samples.

Results

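Secreted antimicrobial and antiprotease proteins were examined as 10 genes, namely LCN2, PI3, SLPI, DEFB1, RNASE7, CCL20, LTF, BPIFB1, SAA1 and SAA2. Every probe set annotated with exactly 1 gene symbol from this set was taken, which gave 11 of the 19158 such probe sets on the array and 10 of its 18404 named genes. SAA2 had 2 and each other gene had 1. The RNA came from PrEC, a normal prostate epithelial line that has been immortalized, and was measured on 6 expression arrays. Of these, 3 held cells with the hairpin shNT, the reference group, and 3 held cells with the hairpin directed at PKCλ/ι (shPKCi). Both groups were grown in prostate epithelial growth medium, collected 48 hours after plating and given no further treatment. The hairpin targets PRKCI, which encodes an atypical protein kinase C known for its part in epithelial polarity. Whether each line was a pool or a clone, and how many hairpin sequences were used, is not given in the sources used here. The series calls the 3 samples of a line biological replicates.

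Epithelia that face the outside world release a mixture of small proteins that limit microbes and restrain proteases. Lipocalin and lactoferrin withhold iron from bacteria, defensins and antimicrobial ribonucleases damage microbial membranes, and whey acidic protein (WAP) domain inhibitors block the serine proteases that neutrophils release. Several of these genes are known targets of NF-kappaB and of the cytokines IL-1 and IL-17, whereas DEFB1 is known as a defensin that epithelia make without a stimulus.

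Array intensity of PRKCI was 1635, 1428 and 1843 in shNT against 800.3, 810.2 and 754 in shPKCi, so that the targeted transcript was lower in every shPKCi array. The array of shNT replicate 2 stood apart, with correlations of 0.973 to 0.988 to the rest, where the remaining 5 arrays correlated at 0.982 to 0.996. The interquartile range of its log2 values was 2.82, and at least 2.977 in every other array. Its median intensity was 48.6, against 44.9 to 45.7 in the rest. Among the 3 shNT arrays it had the lowest value in 6 of the 11 member probe sets and the highest in 2. Those 6, of LCN2, SLPI, RNASE7, CCL20, SAA1 and SAA2 (8180303), lay above the median signal. Those 2, of DEFB1 and LTF, lay below the lower quartile. In PI3, BPIFB1 and SAA2 (7946983) it was neither. Whether the narrower spread of this array bears on these values was not tested. The basal keratin genes KRT5 and KRT14 lay at the 99.6th and 97.1th percentiles of signal, and the basal keratin gene KRT15 at the 34.4th. The luminal keratin genes KRT8 and KRT18 lay at the 95.9th and 96.3th, so that signal level alone does not tell basal from luminal. LCN2 and LTF are also made by neutrophils, and of 11 measured neutrophil markers 10 lay below the median signal and 6 below the lower quartile, with the pan-leukocyte gene PTPRC at the 1.25th percentile and the elastase gene ELANE above the median, at the 61.6th. The summed intensity of the neutrophil markers was 367 to 396 in shNT and 359 to 399 in shPKCi. No neutrophil marker passed limma's test, and 2 had an unadjusted p under 0.05.

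LCN2 and PI3 rose in shPKCi, and SLPI and DEFB1 fell. The fall of SLPI was 1.83-fold and the rise of LCN2 1.64-fold. DEFB1 fell 1.49-fold and PI3 rose 1.40-fold. The other 7 probe sets, of CCL20, RNASE7, BPIFB1, LTF, SAA1 and SAA2, did not pass the test (limma, Benjamini-Hochberg adjusted over the 19158 probe sets, threshold 0.05). Across all probe sets 17.6% passed, with 9.03% higher and 8.53% lower in shPKCi. The median log2 fold change of the 11 member probe sets was -0.24, against -0.02 over all probe sets. The groups did not overlap in 8 member probe sets, 3 higher and 5 lower, where 35.3% of all probe sets showed no overlap.

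**Figure D1:**
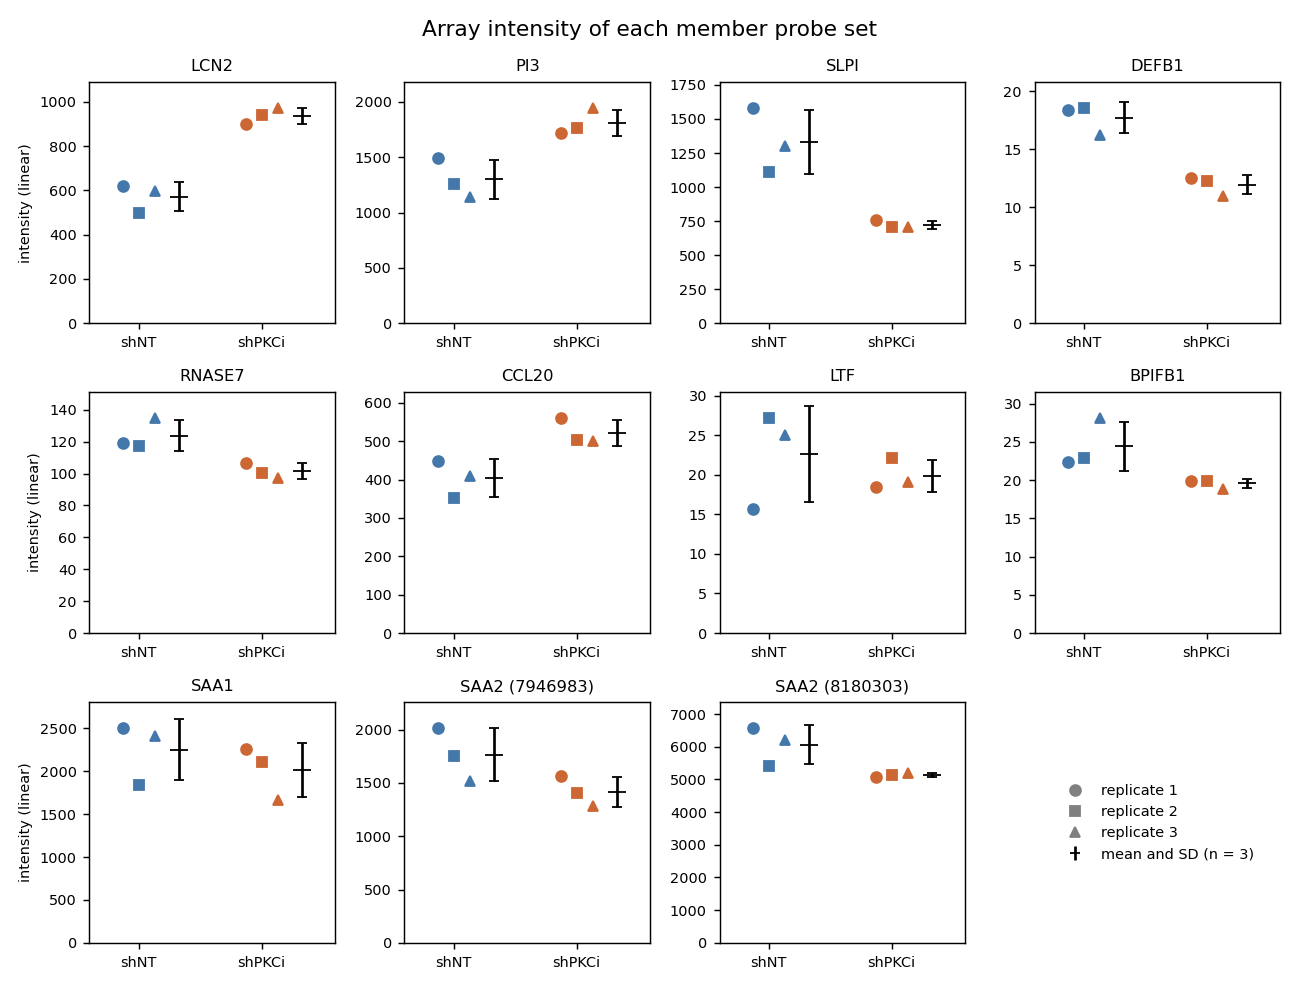
Array intensity (linear scale, axis from 0) of each of the 11 member probe sets in the shNT (blue) and shPKCi (orange) arrays, with replicates as separate symbols and the mean with SD in black. The shPKCi points of LCN2, PI3 and CCL20 lie above all shNT points. Those of SLPI, DEFB1, RNASE7, BPIFB1 and the 8180303 probe set of SAA2 lie below them. Those of LTF, SAA1 and the 7946983 probe set of SAA2 overlap with shNT.

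LCN2 encodes lipocalin 2, which binds bacterial iron carriers. Its probe set 8158167 gave intensities of 619, 499 and 597 in shNT and 901, 939 and 971 in shPKCi. The lowest shPKCi array was above the highest shNT array by more than the range within either group. The group means were 572 ± 63.8 and 937 ± 35.2 (SD, n = 3), and the log2 fold change was 0.72 (SE 0.11, 95% interval 0.47 to 0.96, limma adjusted p = 0.00229). With any single array left out the adjusted p of LCN2 was at most 0.014.

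CCL20 encodes a chemokine that attracts cells carrying the receptor CCR6 and that is itself antimicrobial. Its probe set 8048864 read 449, 352 and 409.8 in shNT and 560.5, 503 and 499 in shPKCi. All shPKCi arrays were above all shNT arrays, with a gap between the groups smaller than the range among the shNT arrays. The log2 fold change was 0.37 (SE 0.12, 95% interval 0.11 to 0.63, limma adjusted p = 0.0558), which did not pass. CCL20 passed when each array was centred on its median (limma adjusted p = 0.0441), without shNT replicate 1 (0.0462), with array weights (0.0473), with a trended and robust variance estimate (0.031) and with either filter on low signal (0.0252 and 0.038). Without any other single array its adjusted p was above the reported one, up to 0.19 without shPKCi replicate 1. CCL20 also did not pass after cyclic loess between arrays (0.0736), with a replicate block (0.0636) or with every probe set of the table tested (0.129).

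Start-site windows were available for 5 of the 10 members, and those of LCN2 and CCL20, the members with all shPKCi arrays higher for which a window was at hand, are printed to show the bases they share. The 250 bases before the annotated start are given from RefSeq (GRCh38.p14), 5′ to 3′. Capitals mark matches to a loose NF-kappaB consensus on either strand and the longest run of bases that the 2 windows share.
LCN2 (chr9:128149203-128149452, plus strand): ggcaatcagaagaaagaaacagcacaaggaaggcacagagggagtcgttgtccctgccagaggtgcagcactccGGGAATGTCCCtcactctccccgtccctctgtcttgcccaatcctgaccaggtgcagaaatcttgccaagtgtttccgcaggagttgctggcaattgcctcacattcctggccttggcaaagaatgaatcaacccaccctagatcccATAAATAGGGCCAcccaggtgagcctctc
CCL20 (chr2:227813592-227813841, plus strand): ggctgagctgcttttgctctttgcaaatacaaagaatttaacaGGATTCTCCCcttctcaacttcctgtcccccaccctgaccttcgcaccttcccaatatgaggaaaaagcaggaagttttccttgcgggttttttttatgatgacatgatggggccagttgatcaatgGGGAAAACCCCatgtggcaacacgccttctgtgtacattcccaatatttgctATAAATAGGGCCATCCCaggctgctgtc
In LCN2 the NF-kappaB match begins 176 bases before the start and, being nearly palindromic, is matched on both strands, 1 base apart. In CCL20 matches begin 207, 80, 79 and 21 bases before the start, of which those at 80 and 79 overlap and the last overlaps the shared run. Of 35116 windows of the same length from all genes, 18.5% hold such a match, so that it is a common string. The shared run ATAAATAGGGCCA is 13 bases long, begins 29 bases before the start of LCN2 and 28 before that of CCL20, and occurs in these 2 windows and no other of the 35116. It includes the TATA-like region of both genes. This run was searched for after the sequences had been seen.

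An AP-1 match (TGANTCA, both strands) stood in the LCN2 window, 52 bases before the start, and in that of RNASE7, 102 bases before it, and 6.57% of all windows hold one. A C/EBP match (TTNNGNAA, both strands) was found in the LCN2 and RNASE7 windows and in 2 of the 3 windows of LTF, and 33.2% of all windows hold one. The letters TATAAA on the sense strand occurred in the CCL20 window 29 bases before the start, overlapping the shared run, and in 6.8% of all windows. The windows of RNASE7, LTF and BPIFB1 held no match to the NF-kappaB consensus. A match of letters is a description of the sequence and was not tested as a binding site.

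PI3 and SLPI encode the WAP-domain antiproteases elafin and secretory leukocyte protease inhibitor, and they went opposite ways. Elafin inhibits neutrophil elastase and proteinase 3, and transglutaminases anchor it in the matrix. The PI3 probe set 8062927 gave 1497, 1258 and 1145 in shNT and 1723, 1762 and 1944 in shPKCi. The lowest shPKCi array lay above the highest shNT array. The means were 1299.8 ± 179.8 and 1809.8 ± 118 (SD, n = 3) and the log2 fold change was 0.48 (SE 0.12, 95% interval 0.21 to 0.76, limma adjusted p = 0.023). The rise of PI3 depended on the arrays used: it did not pass without shNT replicate 3 (0.0768) or without shPKCi replicate 1 (0.057), 2 (0.0696) or 3 (0.0866). It also did not pass after cyclic loess between arrays (0.0697) or with every probe set of the table tested (0.0675).

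SLPI inhibits neutrophil elastase and cathepsin G and is abundant in mucosal secretions. Its probe set 8066493 gave 1579.5, 1113 and 1298 in shNT and 755, 705 and 705 in shPKCi. Every shPKCi array was below every shNT array, and the shPKCi arrays were close together while the shNT arrays were spread. The means were 1330.5 ± 235 and 722 ± 29.1 (SD, n = 3), with a log2 fold change of -0.87 (SE 0.13, 95% interval -1.17 to -0.57, limma adjusted p = 0.00226). With any single array left out the adjusted p of SLPI was at most 0.0135.

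The 2 inhibitors are also described within arrays, as log2 PI3 minus log2 SLPI, a pair taken after their opposite changes were seen. This difference was -0.08, 0.18 and -0.18 in the shNT arrays and 1.19, 1.32 and 1.46 in the shPKCi arrays. Its absolute level has no meaning across probes, and its shift between groups does. The shift was 1.35 on the log2 scale, from -0.03 ± 0.18 to 1.33 ± 0.14 (SD, n = 3), a 2.55-fold change of the ratio. The groups had not overlapped in either gene, so that the separation follows from the choice of the pair. An exact permutation test gave p = 0.1, the smallest possible with 3 arrays a group. That choice fixed this value in advance, so that the test decides nothing.

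**Figure D2:**
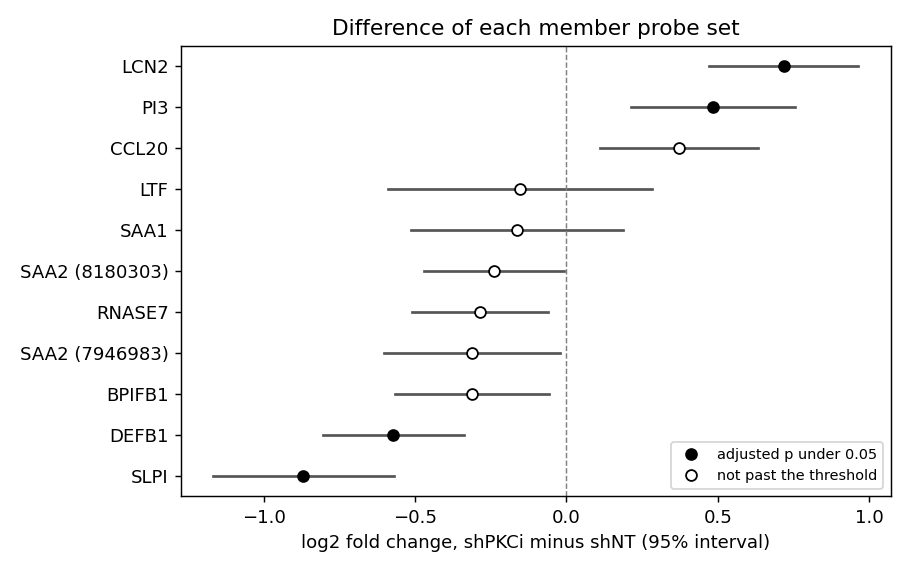
Log2 fold change of each member probe set, shPKCi minus shNT, with its 95% interval from limma; filled points passed an adjusted p of 0.05. LCN2 at 0.72 and PI3 at 0.48 lie to the right of 0, SLPI at -0.87 and DEFB1 at -0.57 to the left, and the intervals of LTF and SAA1 cross 0.

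PI3 and SLPI lie in a cluster of WAP-domain genes on chromosome 20, where SEMG1 and SEMG2 stand between them among protein-coding genes in the RefSeq order. From WFDC5 at one end to WFDC3 at the other, 21 of 26 protein-coding genes had a probe set with 1 symbol, and 10 of these were below the lower quartile of signal. In the fit reported, PI3 passed as higher and WFDC5, SLPI and WFDC2 as lower, 1 and 3 of the 21. Over all probe sets 9.03% passed as higher and 8.53% as lower, 17.6% together, and the number called in the cluster was near that joint share. WFDC5, another WAP-domain gene, fell 2.68-fold (log2 fold change -1.42, SE 0.11, limma adjusted p = 5.74e-05). WFDC2, which encodes the secreted protein HE4, fell 2.70-fold (log2 fold change -1.43, SE 0.11, adjusted p = 6.16e-05). For WFDC12, which lies between WFDC5 and PI3, the log2 fold change was 0.29 (0.0629) and all its shPKCi arrays were higher. WFDC12 passed as higher when each array was centred on its median (adjusted p = 0.0441) and after cyclic loess (0.0446), and in the latter setting PI3 did not pass. The semenogelin genes SEMG1 and SEMG2, at the 6.78th and 7.42th percentiles of signal, had log2 fold changes of -0.15 and 0.13 with overlapping groups.

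**Figure D3:**
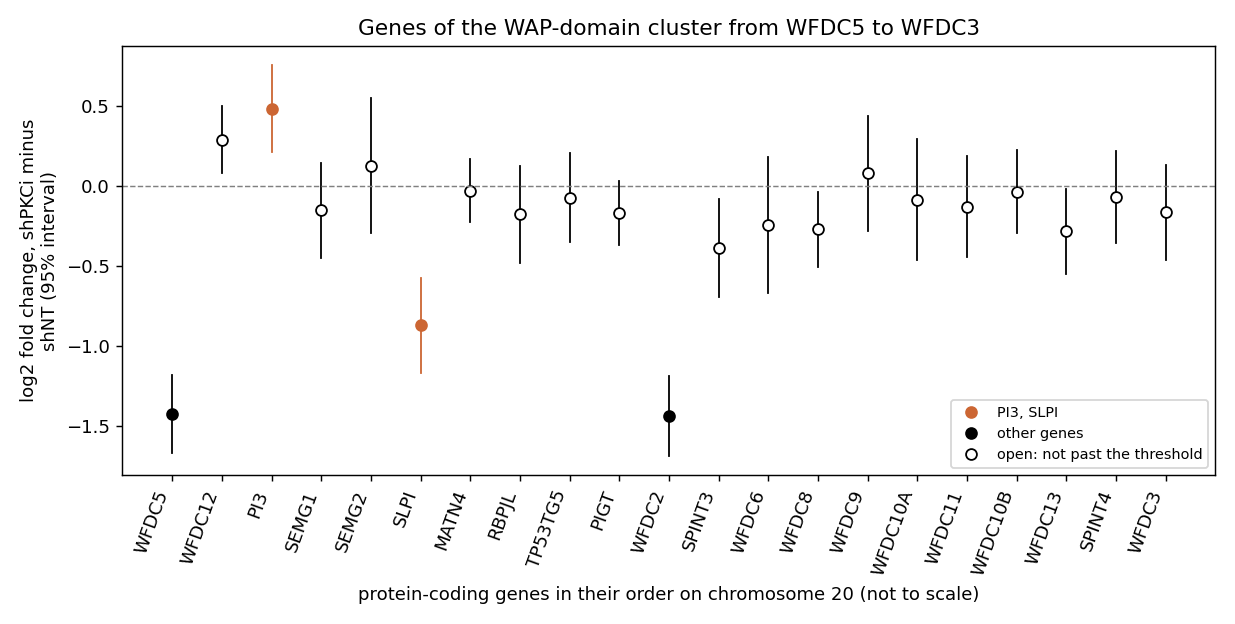
Log2 fold change (shPKCi minus shNT, with 95% interval) of the 21 measured protein-coding genes from WFDC5 to WFDC3, in their order on chromosome 20 and not to scale; filled points passed an adjusted p of 0.05 and orange marks PI3 and SLPI. WFDC5, SLPI and WFDC2 lie at -1.42, -0.87 and -1.43, and PI3 at 0.48.

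DEFB1 and RNASE7 encode antimicrobial peptides and proteins that act on microbes directly. DEFB1, beta-defensin 1, was dim, at the 13.3th percentile of signal. Its probe set 8149097 gave 18.4, 18.5 and 16.2 in shNT and 12.5, 12.3 and 11.0 in shPKCi, with no overlap between the groups. The log2 fold change was -0.57 (SE 0.10, 95% interval -0.80 to -0.34, limma adjusted p = 0.00537), and at most 0.0272 with any single array left out. No detection call was used here, so that how much of this signal is background is not known.

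RNASE7 encodes a ribonuclease with antimicrobial action known from skin and the urinary tract. Its probe set 7973149 read 119, 117 and 135 in shNT and 107, 100.3 and 97.0 in shPKCi. All shPKCi arrays were lower, by a small margin. The log2 fold change was -0.28 (SE 0.10, 95% interval -0.51 to -0.06, limma adjusted p = 0.0867), which did not pass. It passed among probe sets above the median signal (0.0368) and with array weights (0.0272). With each array centred on its median the adjusted p was 0.188, and with 1 array left out it was up to 0.237, without shNT replicate 3.

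LTF and BPIFB1 were dim, at the 20.2th and 21.0th percentiles of signal. LTF encodes the iron-binding protein lactoferrin, and its probe set 8086607 gave 15.7, 27.2 and 25.0 in shNT and 18.4, 22.2 and 19.0 in shPKCi. The shNT arrays held both the lowest and the highest of the 6 values. The log2 fold change of LTF was -0.15 (SE 0.19, 95% interval -0.59 to 0.28, limma adjusted p = 0.676), and with array weights it was 0.03. It rested on single arrays, at -0.40 without shNT replicate 1 and near 0 without shNT replicate 2. BPIFB1 encodes a secreted protein of the family of bactericidal permeability-increasing protein. It gave 22.3, 22.8 and 28.1 in shNT and 19.9, 19.9 and 18.8 in shPKCi (probe set 8061894). The groups of BPIFB1 did not overlap, and the log2 fold change was -0.31 (SE 0.11, 95% interval -0.57 to -0.06, limma adjusted p = 0.0946). It passed with array weights (0.041), while without shNT replicate 3 the adjusted p was 0.254.

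SAA1 and SAA2 encode the acute-phase serum amyloid A proteins, and their probe sets were bright, at the 97.6th percentile of signal or above. The transcripts are nearly identical, so that each probe set can take signal from the other gene. SAA1 (probe set 7938758) gave 2506, 1843 and 2405 in shNT and 2264, 2109 and 1659 in shPKCi. The groups overlapped, with 1 shNT array below 2 shPKCi arrays. The log2 fold change of SAA1 was -0.16 (SE 0.16, 95% interval -0.51 to 0.19, limma adjusted p = 0.562). It was -0.30 without shNT replicate 2 and -0.03 without shPKCi replicate 3.

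The SAA2 probe set 7946983 read 2016, 1751 and 1521 in shNT and 1563, 1404 and 1279 in shPKCi, with 1 shPKCi array above the lowest shNT array. Its log2 fold change was -0.31 (SE 0.13, 95% interval -0.60 to -0.02, limma adjusted p = 0.142). The brighter SAA2 probe set 8180303 read 6578, 5413 and 6209.5 in shNT and 5065, 5125 and 5183 in shPKCi. The shPKCi arrays were close together and below every shNT array. Its log2 fold change was -0.24 (SE 0.10, 95% interval -0.47 to -0.01, limma adjusted p = 0.158). Without shNT replicate 2 it was -0.32 and passed (adjusted p = 0.0298), and after cyclic loess between arrays -0.35 (0.0233). This probe set also passed under array weights (0.0219). Its fall did not pass after median centring (0.305), under a replicate block (0.233) or in a fit of all probe sets (0.264). Leaving out any other single array gave an adjusted p of 0.266 to 0.355.

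A further probe set, 7946986, is annotated to SAA1 and SAA2 together and was therefore no member. It gave 411, 208 and 395 in shNT and 166, 219 and 172 in shPKCi. The value of shNT replicate 2 lay within the range of the shPKCi arrays. Fitted with all 32321 probe sets, its log2 fold change was -0.81 (SE 0.27, limma adjusted p = 0.139). Without shNT replicate 2 the log2 fold change was -1.13 and passed (adjusted p = 0.0103), and in the other 5 fits without 1 array the adjusted p was between 0.2 and 0.334.

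**Figure D4:**
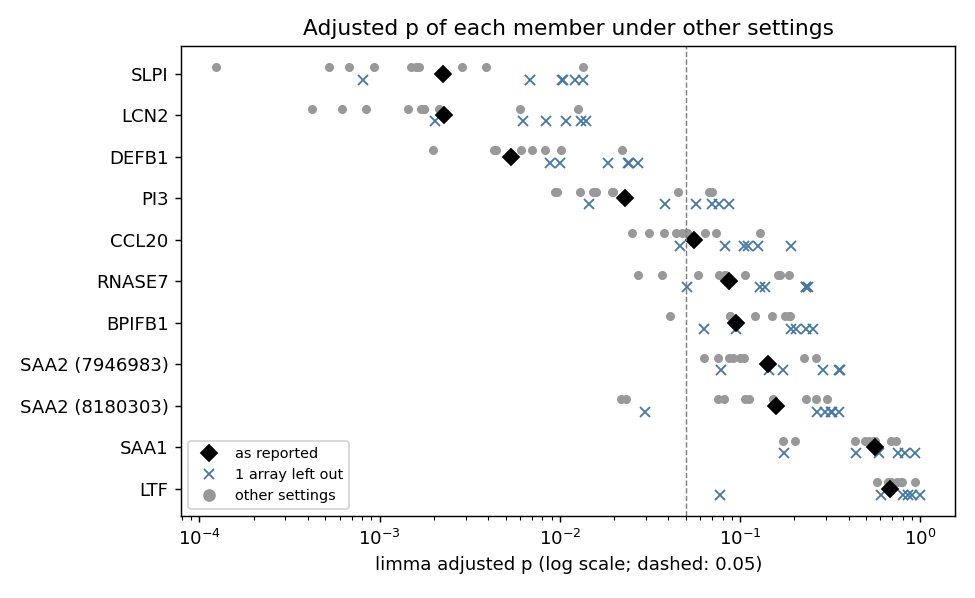
Limma adjusted p (log axis, 0.05 dashed) of each member probe set as reported (black), with 1 array left out (blue crosses) and under the other settings except the stricter thresholds (grey). SLPI, LCN2 and DEFB1 stay left of 0.05 throughout. PI3, CCL20, RNASE7, BPIFB1 and the 8180303 probe set of SAA2 have values on both sides. Those of SAA1, LTF and the 7946983 probe set of SAA2 lie to the right.

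SLPI had the smallest adjusted p of the members, and the probe sets of other genes most like it over the 6 arrays were those of FAAH2, CTSV and YPEL5. Likeness was the root mean square distance of log2 values centred on their own mean, which was 0.05 for FAAH2, 0.06 for CTSV and 0.07 for YPEL5. CTSV encodes cathepsin V, a lysosomal cysteine protease, and its intensities were 824, 567 and 721 in shNT and 428, 379 and 357 in shPKCi. In SLPI as in all 3 of these, shNT replicate 2 was the lowest shNT array and replicate 1 the highest.

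Other antimicrobial proteins of epithelia and leukocytes mostly did not pass. Of 46 measured genes 3 fell, and none rose by limma, with 1 higher and 4 lower at an unadjusted p under 0.05. Over all probe sets 9.03% passed as higher and 8.53% as lower, so that the share that fell was no larger than the background. Their median log2 fold change was -0.06, and 41 of the 46 were below the median signal. CXCL14, a chemokine with antimicrobial action, fell 1.68-fold (adjusted p = 0.00284) and CHI3L1, a chitinase-like protein gene, 1.53-fold (0.0048). ADM, which encodes adrenomedullin, fell 1.33-fold (0.0201) and was named after its value was seen. Its call was lost in 5 of the 6 fits without 1 array (adjusted p up to 0.0888), which left 2 genes lower. For the cathelicidin gene CAMP the log2 fold change was 0.20 (0.203) and for the lysozyme gene LYZ, at the 2.29th percentile of signal, it was 0.04 (0.877); both were picked after their values were seen.

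Antiproteases outside the members fell in 6 of 32 measured genes and rose in none by limma, with 1 higher and 11 lower at an unadjusted p under 0.05. The median was -0.16, and of all probe sets 9.03% passed as higher and 8.53% as lower. SERPINA1, which encodes the elastase inhibitor alpha-1 antitrypsin, fell 2.87-fold (log2 fold change -1.52, SE 0.09, limma adjusted p = 1.56e-05), beside WFDC5 and WFDC2. SERPINA3, A2ML1 and RECK, named after their values were seen, fell 2.70-fold, 1.71-fold and 1.74-fold. In the 6 fits without 1 array, 6 or 7 genes of the list fell, and 1 rose in the fit without shNT replicate 2.

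Genes for serine proteases of the kinds these inhibitors act on fell in 4 of 10 measured genes, and none rose by limma, with 1 higher and 5 lower at an unadjusted p under 0.05. The median was -0.23, and of all probe sets 9.03% passed as higher and 8.53% as lower. TMPRSS4, a membrane serine protease gene, fell 1.81-fold (adjusted p = 0.000552) and PRSS8, which encodes prostasin, 1.78-fold (0.000741). The matriptase gene ST14 and the kallikrein gene KLK7 fell 1.31-fold and 1.25-fold (0.0359 and 0.0423) and were named after their values were seen. The count was 2 in 5 of the fits without 1 array and 3 without shNT replicate 2. The neutrophil elastase gene ELANE and the proteinase 3 gene PRTN3 had log2 fold changes of 0.04 and 0.01 (adjusted p = 0.867 and 0.974).

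Receptors and partners of the member proteins passed in 2 of 17 measured genes, both lower, and none rose by limma, with 1 higher and 3 lower at an unadjusted p under 0.05. This is near the 8.53% of all probe sets that passed as lower. The median was 0.03. Without shNT replicate 2, 1 gene rose, and without shNT replicate 3, 3 fell. TGM1, a transglutaminase gene of cornifying epithelium, fell 5.03-fold (log2 fold change -2.33, SE 0.09, limma adjusted p = 3.8e-06). LRP1, a scavenger receptor gene that takes up lactoferrin among other ligands, fell 1.68-fold (adjusted p = 0.00288). TGM2, the tissue transglutaminase gene, had a log2 fold change of 0.29 (0.0673). The LCN2 receptor gene SLC22A17 had a log2 fold change of -0.14 (0.409) and CCR6, the receptor gene for CCL20, of 0.03 (0.913), with CCR6 at the 11.0th percentile of signal.

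Iron handling was looked at because LCN2 and LTF act on iron. TFRC, the transferrin receptor gene, rose 2.51-fold (log2 fold change 1.33, SE 0.12, limma adjusted p = 0.000158). BDH2, which has been linked to a mammalian iron carrier bound by lipocalin 2, fell 1.52-fold (0.00466). FBXL5, an iron sensor gene, and FTL, the ferritin light chain gene, fell by 0.47 and 0.30 on the log2 scale (0.0141 and 0.0483). Both were named after their values were seen. Of 15 measured genes 1 rose and 3 fell, with a median of -0.10, where 9.03% of all probe sets passed as higher and 8.53% as lower. Without shNT replicate 1, shPKCi replicate 1 or shPKCi replicate 2, 1 rose and 1 fell.

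Epithelial genes known to respond to IL-17 or NF-kappaB, outside the members, rose in 12 of 31 measured genes and fell in 4. The median was 0.12, and of all probe sets 9.03% passed as higher and 8.53% as lower. The chemokine genes CXCL5 and CXCL6 rose 6.55-fold and 3.52-fold (adjusted p = 1.43e-05 and 4.63e-05), and the complement gene CFB fell 6.09-fold (4.55e-06). The other genes of the list that fell were MUC1, S100A9 and DUOX1, by 0.98, 0.59 and 0.82, named after their values were seen. The genes that rose did so by 1.31-fold to 6.55-fold, where LCN2 rose 1.64-fold. In the fits without 1 array, 11 to 13 rose and 4 to 6 fell. This list was chosen with earlier results of these data known, so that its counts are no independent test of enrichment.

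**Figure D5:**
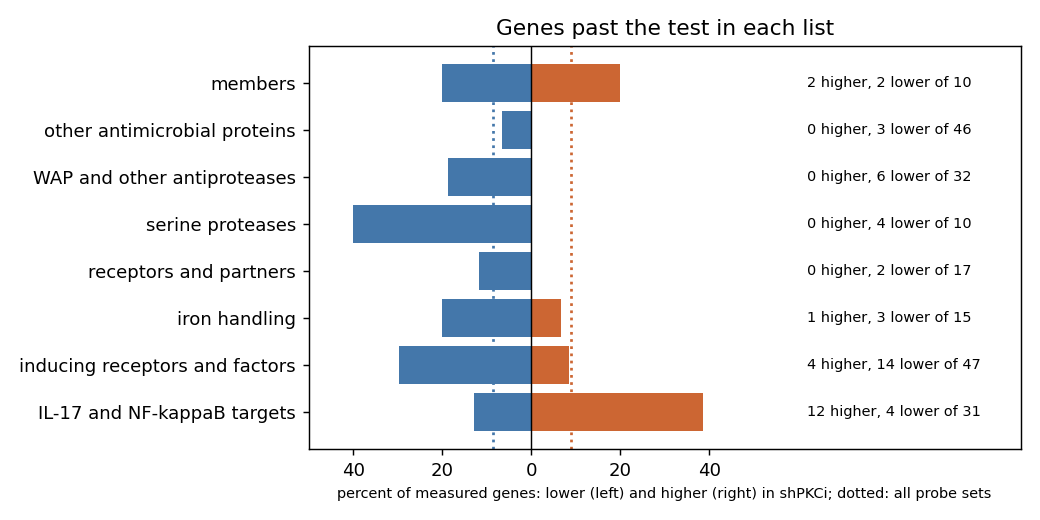
Percent of the measured genes of each list that were higher (orange, to the right) or lower (blue, to the left) in shPKCi at an adjusted p under 0.05, with counts beside the bars and the shares over all probe sets, 9.03% and 8.53%, as dotted lines. The IL-17 and NF-kappaB target list has 12 of 31 genes higher, and the antiprotease and protease lists have genes on the lower side only. All lists were chosen with earlier results of these data known.

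Markers of cell types were counted in the same way. Of 10 measured basal prostate markers 6 fell, and none rose by limma, with 1 higher and 7 lower at an unadjusted p under 0.05. The count that fell was 3 without shPKCi replicate 1 or 2, 4 without shNT replicate 1 or shPKCi replicate 3, and 5 without shNT replicate 3. Without shNT replicate 2, 6 fell and 1 rose. Their summed intensity was 13543 to 15073 in shNT and 10955 to 11160.1 in shPKCi, and the desmosomal cadherin gene DSG3 fell 2.68-fold (adjusted p = 3.24e-05). Of 12 markers of club and hillock cells, prostate epithelial types known for secreted defence proteins, WFDC2, KRT13 and AQP3 fell, KRT13 by 2.06-fold (adjusted p = 0.000699). The call of AQP3 (adjusted p = 0.0443) was lost in 5 of the 6 fits without 1 array, and without shNT replicate 2 1 marker of the list rose. None rose by limma, with 1 higher and 4 lower at an unadjusted p under 0.05. The club cell gene SCGB3A1 had a log2 fold change of 0.01. The summed intensity of the list was 2872 to 3075 in shNT and 2726 to 2811 in shPKCi.

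Of 8 luminal markers ACP3 fell, with 1 higher and 1 lower at an unadjusted p under 0.05, while leaving out shNT replicate 2 gave 2 higher beside 1 lower. The sum of the luminal markers was 1974 to 2666 in shNT and 2691 to 2786 in shPKCi. This sum mostly follows KRT8 and KRT18, at mean log2 values of 9.94 and 10.07 in shNT, where the other markers were at most 5.64. In the fit reported neither keratin gene passed (limma adjusted p = 0.0679 and 0.23). Of 11 stromal and endothelial markers COL1A1 fell (sum of the list 461 to 576 in shNT and 428 to 437 in shPKCi). Of 9 macrophage and lymphocyte markers CD3D rose (sum of the list 475 to 529.5 and 449.5 to 465). Over all probe sets 9.03% passed as higher and 8.53% as lower, so that 1 call in a list of 8, 11 or 9 is near the background. The calls of COL1A1 and CD3D were each lost in 4 of the 6 fits without 1 array (adjusted p up to 0.105 and 0.11). AQP3, COL1A1 and CD3D were named after their values were seen. In bulk RNA, fewer cells of a type and less RNA per cell cannot be told apart, and the part of these shifts in the members' values was not tested.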

How the data were processed

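Each of 6 PrEC samples gave 1 array from biotin-labelled total RNA, per the labels. The deposited intensities are on a linear scale for 32321 probe sets, and the submitters' processing notes name RMA, a method of background correction, quantile normalization and probe set summary; software, version and build are not given in the sources used here. Values were taken to log2 with no pseudocount. Names came from the platform annotation (19158 probe sets with 1 symbol, 1388 with several, 11775 not listed), and probe sets with 1 symbol were fitted with limma 3.58.1 in R 4.3.3 (lmFit, eBayes, 6 arrays, no covariate) and adjusted by Benjamini-Hochberg, threshold 0.05. No filter on low values was applied, so all 11 member probe sets were tested. The members and lists were chosen with earlier results of these data known. In lists a gene with several probe sets counts by the one with the highest mean.

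Named were all members, PRKCI, up to 3 genes of each list with the smallest adjusted p and at least 1.5-fold, and the 3 most like the member with the smallest adjusted p. Folds are from means of log2 values, and the 3 arrays a group limit the precision. Alternatives were each array left out, a replicate block, median centring, cyclic loess, signal filters, other feature sets, variance models, array weights and stricter thresholds; list counts without single arrays were added after the data were seen. The fit was tested on simulated data.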

Additional observations from a re-analysis of the deposited data

How the results depend on the processing

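Across 18 alternatives, or 16 for DEFB1, LTF, BPIFB1 and the SAA2 probe set 7946983, the fold changes of the 11 member probe sets kept their direction in all but 1 case, LTF with array weights (0.028, adjusted p = 0.937). SLPI, LCN2 and DEFB1 passed in every fit except treat against a fold of 1.5, where 0 members passed after adjustment and 1 at an unadjusted p under 0.05. The dim members were removed by both signal filters, and that SAA2 probe set has no value of its own where each gene has 1. Among all probe sets, 89 were higher and 179 lower with treat, and 823 and 877 at an adjusted p under 0.01. With 1 array left out, 958 to 1917 were higher and 1010 to 1945 lower, the lowest counts without shPKCi replicate 2. Member probe sets numbered 1 to 3 higher and 2 to 3 lower in those fits; 1 was higher after cyclic loess, with every probe set tested, and at an adjusted p under 0.01. Of the lower members 1 was left with a filter at the lower quartile of signal, and 5 passed with array weights.

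Deviations of same-numbered arrays from their group means correlated at 0.107, -0.06 and -0.18, and those of differently numbered arrays at -0.164 to 0.205. With so few arrays, this cannot tell whether same-numbered samples were prepared together. With the replicate block 2 member probe sets were higher and 2 lower, and 1448 and 1352 of all probe sets; it changed no call of a member. Median centring gave 2085 higher and 1322 lower. What moved the borderline calls was not tested, and 3 arrays a group limit all of them.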

Other observations

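Receptors and factors listed as possible inducers of the members in epithelium gave 4 higher and 14 lower genes of 47 measured. The median log2 fold change of this list was -0.15, and of all probe sets 9.03% passed as higher and 8.53% as lower. The members of the toll-like receptor family went both ways. TLR4, a receptor for bacterial lipopolysaccharide, rose 2.25-fold (limma adjusted p = 0.000216), while TLR2, a receptor for bacterial lipoproteins, fell 2.99-fold (0.000711). TLR4 was at the 30.3th percentile of signal. KLF4, a transcription factor gene of differentiating epithelium, fell 1.71-fold (0.00083). The following genes were named after their values were seen. On the log2 scale, TLR3 fell by 1.13, the IL-1 co-receptor gene IL1RAP by 0.64, and TRAF3IP2, which encodes the adaptor of IL-17 receptors, by 0.43. GATA3, OSMR, IL20RB and KLF5 fell by 0.68, 0.56, 0.49 and 0.51, each with a smaller adjusted p than TRAF3IP2. The other genes that rose were MYD88, NFKB2 and NFKBIZ, by 0.52, 0.50 and 0.39 on the log2 scale. NFKBIZ encodes a nuclear cofactor known to be needed for LCN2 induction, and its rise did not pass in 4 of the 6 fits without 1 array, with an adjusted p of up to 0.105. Without shPKCi replicate 1, 3 genes of the list rose and 8 fell; 9 fell without shPKCi replicate 2 or shPKCi replicate 3, and 2 rose without shNT replicate 3.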
